A study of Mus musculus with 71 samples.

Results

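The SMAD family and its pathway inhibitors, 10 genes in all, are described here across mouse embryos that lack all or some of the microRNAs of the miR-17~92 cluster. They are the receptor-regulated SMAD genes Smad1, Smad2, Smad3, Smad5 and Smad9, the common partner Smad4, the inhibitory Smad6 and Smad7, and the pathway inhibitors Bambi and Pmepa1. They were chosen by name, as the SMAD family and its inhibitors, with earlier results of these data known. All 10 of them were found among the 37620 genes of the count table.

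RNA-seq was made from C57BL/6 embryos at E9.5, staged at 20 to 22 somites, which were divided into heart, tail bud and the rest of the embryo. The mutants were Full-KO (the whole cluster knocked out), Delta_17_18_92 (lacking miR-92a-1, miR-18a, miR-17 and miR-20a), Delta_17_18 (lacking miR-18a, miR-17 and miR-20a), Delta_17 (lacking miR-17 and miR-20a), Delta_18 (lacking miR-18a), Delta_19 (lacking miR-19a and miR-19b-1) and Delta_92 (lacking miR-92a-1). They were compared with wild-type embryos. With 8 genotypes and 3 tissues there were 24 groups and 71 libraries. Of the groups 23 had 3 libraries, and the rest of the embryo of Delta_17_18_92 had 2. The samples came from timed matings and the series calls them biological triplicates. Zygosity and whether animals were pooled are not given in the sources used here, and each tissue is a mixture of cell types.

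SMAD proteins carry signals of the TGF-β superfamily into the nucleus. Receptors for activin, Nodal and TGF-β act mainly through Smad2 and Smad3. Receptors for bone morphogenetic proteins (BMPs) act mainly through Smad1, Smad5 and Smad9, and both sets pair with Smad4 to bind DNA. Smad6 and Smad7 block receptor-regulated SMADs and are themselves induced by the pathway. Bambi is a decoy receptor without a kinase, and Pmepa1 is a membrane protein that holds Smad2 and Smad3 away from the receptor. In the embryo these pathways pattern the mesoderm, the tail bud and the outflow tract and valves of the heart. MicroRNAs lower the level or translation of mRNAs that pair with their seed, bases 2 to 8.

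The 6 mature microRNAs of the cluster are shown because the mutants differ in which seeds they lack. Capitals mark bases 2 to 8. All 6 lie on chromosome 14, plus strand, in the RefSeq annotation of GRCm38.p6, between chr14:115043684-115043706 for miR-17-5p and chr14:115044476-115044496 for miR-92a-3p.
mmu-miR-17-5p: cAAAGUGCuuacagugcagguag
mmu-miR-20a-5p: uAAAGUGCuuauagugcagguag
mmu-miR-18a-5p: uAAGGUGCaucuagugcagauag
mmu-miR-19a-3p: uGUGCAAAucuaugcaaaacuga
mmu-miR-19b-3p: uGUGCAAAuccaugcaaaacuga
mmu-miR-92a-3p: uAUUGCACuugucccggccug
By seed these form 4 families: miR-17-5p with miR-20a-5p, miR-18a-5p alone, miR-19a-3p with miR-19b-3p, and miR-92a-3p alone.

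The sites that these seeds pair with were looked for on the sense strand of the longest annotated 3′ UTR of each gene (GENCODE M21, GRCm38). The words were GCACTTT for miR-17, GCACCTT for miR-18, TTTGCAC for miR-19 and GTGCAAT for miR-92. The miR-17 and miR-19 words share letters and can overlap. Smad2 held 2 miR-17 and 2 miR-18 matches, Smad6 and Smad7 each held 1 miR-17 and 1 miR-92 match. Bambi held 1 miR-17 and 1 miR-19 match, and Pmepa1 held 2 miR-19 matches and 1 miR-18 match. Smad9 held 2 miR-19 matches, Smad5 held an overlapping miR-17 and miR-19 match, and Smad1 held 1 miR-19 match. Smad3 held 1 miR-18 match, and Smad4 held none of the 4 words. Of 19737 genes with a 3′ UTR, 12.1% held the miR-17 word, 7.9% the miR-18 word, 11.5% the miR-19 word and 6.7% the miR-92 word. Long UTRs hold such words more often. The word for miR-17 was in 42.5% of UTRs about as long as the 6233 bases of Smad2, but in 3.8% of UTRs about as long as the 448 bases of Smad6. A match is a string of letters and not a tested site.

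Total counts per library ran between 13532012 and 27477273, with a median of 21103719. In all, 17009 genes were tested in the tail bud, 16750 in the heart and 17512 in the rest. All 10 genes passed the filter on low counts in every tissue. The labelled tissues carried their own markers. The summed level of 6 heart muscle genes was 29010 to 37100 CPM (counts scaled to the normalised library total) in hearts, against 14.9 to 35.9 CPM in tail buds and 156 to 525 CPM in the rest of the embryo. The tail bud list summed to 521 to 845 CPM in tail buds, against 6.36 to 19.9 CPM in hearts and 22.8 to 35.1 CPM in the rest. The 6 hairpin genes of the cluster had a count of 0 in every library, so the deletions could not be read from them. The host transcript Mir17hg was between 340 and 348 CPM in Full-KO tail buds, against 105 to 137 CPM in wild-type tail buds. It was 154 to 160.1 CPM in Full-KO hearts, against 43.2 to 47.1 CPM in wild-type hearts, and 397 to 430.2 CPM in the Full-KO rest of the embryo, against 142 to 149 CPM in wild type. These ranges do not overlap in any tissue. Of the smaller deletions, Delta_17_18_92, Delta_17_18, Delta_17, Delta_19 and Delta_92 were also entirely above wild type in every tissue, and Delta_18 was not. In tail buds Mir17hg was 396 to 419 CPM in Delta_17_18_92, 237 to 257 CPM in Delta_17_18 and 230 to 239 CPM in Delta_17. It was 163 to 178 CPM in Delta_19, 148 to 175 CPM in Delta_92 and 122 to 141 CPM in Delta_18, the last overlapping wild type. Delta_18 hearts, at 41.3 to 41.9 CPM, were below it. Which part of the host transcript each deletion leaves is not given in the sources used here, so these levels do not check the genotype labels.

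In wild-type embryos the heart had the highest levels of Smad6, Smad7, Bambi and Smad9, and less Smad1, Smad3 and Smad5 than the other tissues. Smad6 had 120.4, 116 and 123 CPM in the 3 hearts, 28.3, 32.0 and 29.3 CPM in the tail buds and 18.7, 18.9 and 19.0 CPM in the rest of the embryo. The hearts lay far above both other tissues with no overlap. The heart level of Smad6 was 6.31-fold that of the rest of the embryo (log2 difference 2.66 ± 0.07, SE; adjusted p = 2.99e-12) and 3.98-fold that of the tail bud (1.99 ± 0.06; adjusted p = 2.52e-11). These and all adjusted p-values below, unless DESeq2 is named, are from edgeR's quasi-likelihood test with Benjamini-Hochberg adjustment. In bulk tissue, fewer cells of a type and less RNA per cell cannot be told apart. Endothelium and endocardium markers were also highest in the heart, where 6 genes summed to 889 to 1265 CPM over all genotypes, against 337 to 439.6 CPM in tail buds and 345 to 447 CPM in the rest. Their part in the Smad6 difference was not tested.

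Bambi had 147, 143 and 147 CPM in wild-type hearts, 70.8, 66.9 and 92.4 CPM in tail buds and 28.6, 27.1 and 30.2 CPM in the rest of the embryo. The 3 tissues did not overlap, with the heart 5.06-fold above the rest (adjusted p = 7.64e-10) and 1.90-fold above the tail bud (adjusted p = 3.14e-06). Smad7 followed the same order, at 67.5, 59.8 and 68.5 CPM in hearts, 39.6, 39.0 and 36.7 CPM in tail buds and 20.2, 19.4 and 22.4 CPM in the rest, 3.14-fold higher in heart than in the rest (adjusted p = 1.35e-09). Smad9, a BMP-regulated SMAD, had 33.7, 30.8 and 30.7 CPM in hearts, 10.5, 13.8 and 11.2 CPM in tail buds and 8.43, 8.26 and 6.40 CPM in the rest, 4.11-fold higher in heart than in the rest (adjusted p = 1.44e-08). Pmepa1 differed in order. The tail bud, at 11.1, 10.4 and 9.97 CPM, was above the heart, at 8.67, 8.08 and 8.59 CPM, and both were above the rest of the embryo, at 1.66, 2.29 and 2.52 CPM. The Pmepa1 difference between tail bud and rest was 4.84-fold (log2 2.28 ± 0.15; adjusted p = 1.09e-07).

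The receptor-regulated SMADs other than Smad9 differed less between wild-type tissues. Smad5, a BMP-regulated SMAD, had 146, 142 and 149 CPM in hearts, 249, 256 and 249 CPM in tail buds and 214, 227 and 219.8 CPM in the rest. Its log2 differences were -0.79 (heart minus tail bud; adjusted p = 6.83e-09) and -0.60 (heart minus rest; adjusted p = 1.08e-07). Smad3 was also lower in heart than in the rest (log2 difference -0.60 ± 0.07; adjusted p = 6.84e-06), whereas Smad2, the other transducer of activin and Nodal signals, was higher (0.36 ± 0.05; adjusted p = 2.87e-05). The common partner Smad4 had 209, 216 and 167 CPM in hearts, against 176, 176 and 156 CPM in tail buds, and these ranges overlapped. Its adjusted p for heart minus tail bud was 0.0397, with a log2 difference of 0.22 ± 0.09. It was 0.0576 to 0.222 when any 1 of 6 wild-type libraries was left out (all 3 of the rest of the embryo, heart 1 and 2, tail bud 3). With no filter on low counts it was 0.0614. For heart minus rest it was 0.0941. The Pmepa1 difference between heart and tail bud (log2 -0.32 ± 0.13; adjusted p = 0.0394) was likewise lost without any 1 of 6 libraries (all 3 hearts, tail bud 1 and 2, rest 2; 0.0522 to 0.12), by DESeq2 (0.0562) and with no filter on low counts (0.0503). Of the 30 comparisons of the 10 genes between wild-type tissues 25 passed the threshold of 0.05 (83.3%), beside 55.5% of all gene comparisons. By pair, 68.1% of all genes were called between heart and rest, 68.6% between heart and tail bud and 29.8% between tail bud and rest.

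Per kilobase of exon the order within a tissue can be compared between genes. In wild-type hearts Smad4 came first, at 53.2 ± 7.14 CPM per kb (SD, n = 3), followed by Smad6 at 37.3 ± 1.13 and Bambi at 28.7 ± 0.489 CPM per kb. Next were Smad5 at 19.6 ± 0.443, Smad3 at 19.0 ± 1.70 and Smad7 at 14.4 ± 1.06 CPM per kb. Smad2 at 10.9 ± 0.0227, Smad1 at 6.42 ± 0.387, Smad9 at 5.91 ± 0.315 and Pmepa1 at 1.72 ± 0.0656 CPM per kb made up the lower end. In hearts the neighbours Smad5 and Smad3, and Smad1 and Smad9, overlapped. In tail buds the order was Smad4, Smad5, Smad3, Bambi, Smad6, Smad2, Smad7, Smad1, Smad9 and Pmepa1, between 45.6 ± 3.14 and 2.14 ± 0.12 CPM per kb. There were overlaps between Smad6 and Smad2, Smad7 and Smad1, and Smad9 and Pmepa1. In the rest of the embryo it was Smad4, Smad5, Smad3, Smad2, Smad1, Smad6, Bambi, Smad7, Smad9 and Pmepa1, between 47.1 ± 1.19 and 0.438 ± 0.0906 CPM per kb. Here overlaps were between Smad5 and Smad3, and Smad6 and Bambi. Smad6 and Bambi were thus near the top in heart and in the lower part of the order in the rest of the embryo.

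**Figure D1:**
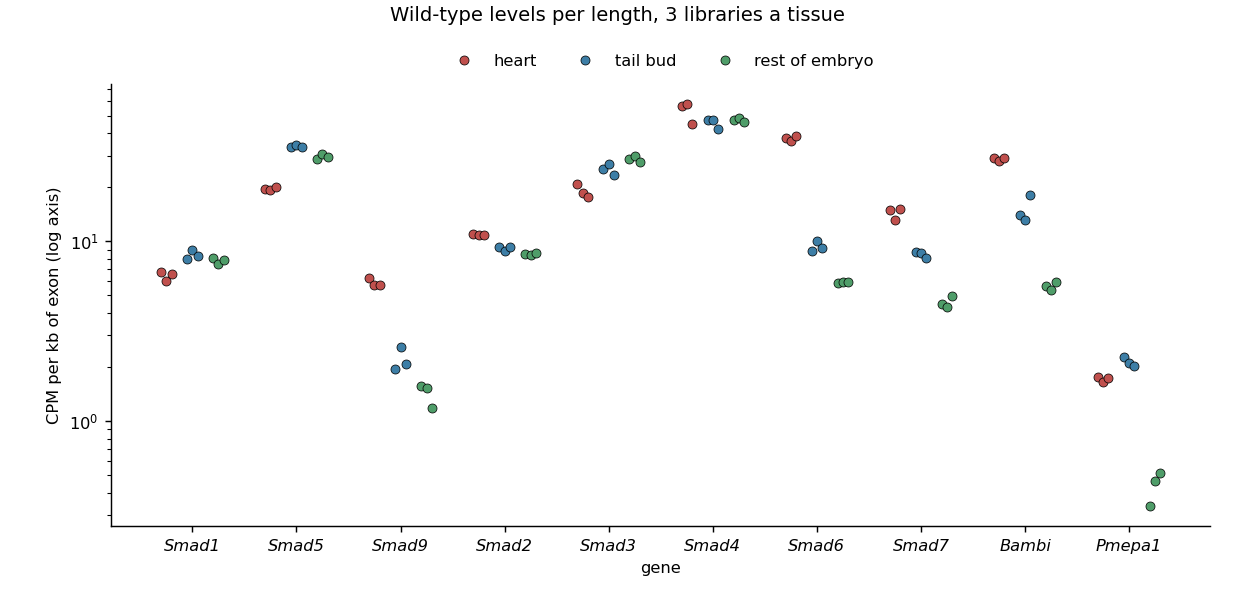
Level of the 10 genes in wild-type heart, tail bud and rest of the embryo, in CPM per kilobase of exon on a log axis, each point 1 library (n = 3 per tissue). Smad6, Bambi, Smad7 and Smad9 are highest in heart, and Pmepa1 is lowest in the rest of the embryo, at 0.438 ± 0.0906 CPM per kb (SD).

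Each mutant was then compared with wild type in each tissue, which asks how the RNA levels of the pathway's SMADs and inhibitors stood when all or some seeds of the cluster were missing. Smad2, Smad6, Smad7, Bambi and Pmepa1 were higher in several mutants, and no member passed the edgeR test in the lower direction (13 were lower at an unadjusted p under 0.05, and DESeq2 called 1). Of 210 comparisons 27 passed an adjusted p of 0.05. These calls were 10 of 70 in the tail bud (14.3%, beside 3.94% of all gene comparisons), 4 of 70 in the heart (5.71%, beside 1.14%) and 13 of 70 in the rest (18.6%, beside 3.02%). All 27 had mutant libraries entirely above the wild-type ones. Groups this small make that likely for any upward call, so it adds no support. Called or not, libraries did not overlap in 25, 18 and 36 of 70 comparisons in tail bud, heart and rest. The mutant was the lower group in 2, 4 and 7 of these. The share without overlap over all genes was not computed. The median log2 change of the members was 0.0544, 0.0153 and 0.113 in tail bud, heart and rest, against -0.00541, 0.000459 and -0.00215 over all genes. The 7 mutants of a tissue share its 3 wild-type libraries, so these counts are not independent of each other. The genes were also chosen with earlier results of these data known, which limits the comparison with all genes.

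Most calls came from the larger deletions. In Full-KO, 4, 3 and 3 of the 10 genes were called in tail bud, heart and rest, where 10.4%, 3.91% and 6.66% of all genes were. In Delta_17_18_92 the counts were 4, 1 and 4, with 5.57%, 1.89% and 5.62% of all genes, and in Delta_17_18 they were 2, 0 and 4, with 8.31%, 1.12% and 4.44%. Delta_17 had 0, 0 and 1, with 1.77%, 0.555% and 1.56%, and Delta_18 also 0, 0 and 1, with 0.129%, 0.0418% and 0.36%. Both single calls were of Smad2. Delta_19 and Delta_92 had 0 of 30 each by edgeR, with 1.03%, 0.406% and 1.88% of all genes called in Delta_19 and 0.359%, 0.0716% and 0.588% in Delta_92. At an unadjusted p under 0.05 there were 8 in Delta_19 and 1 in Delta_92, and DESeq2 called 1 and 0. For these and the other counts at an unadjusted p or by DESeq2, the share over all genes was not computed. By role, the 4 inhibitors made 18 of 84 comparisons (21.4%; median log2 change 0.134) and the 6 receptor-regulated and common SMADs 9 of 126 (7.1%; median 0.0127), and all 9 were of Smad2.

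**Figure D2:**
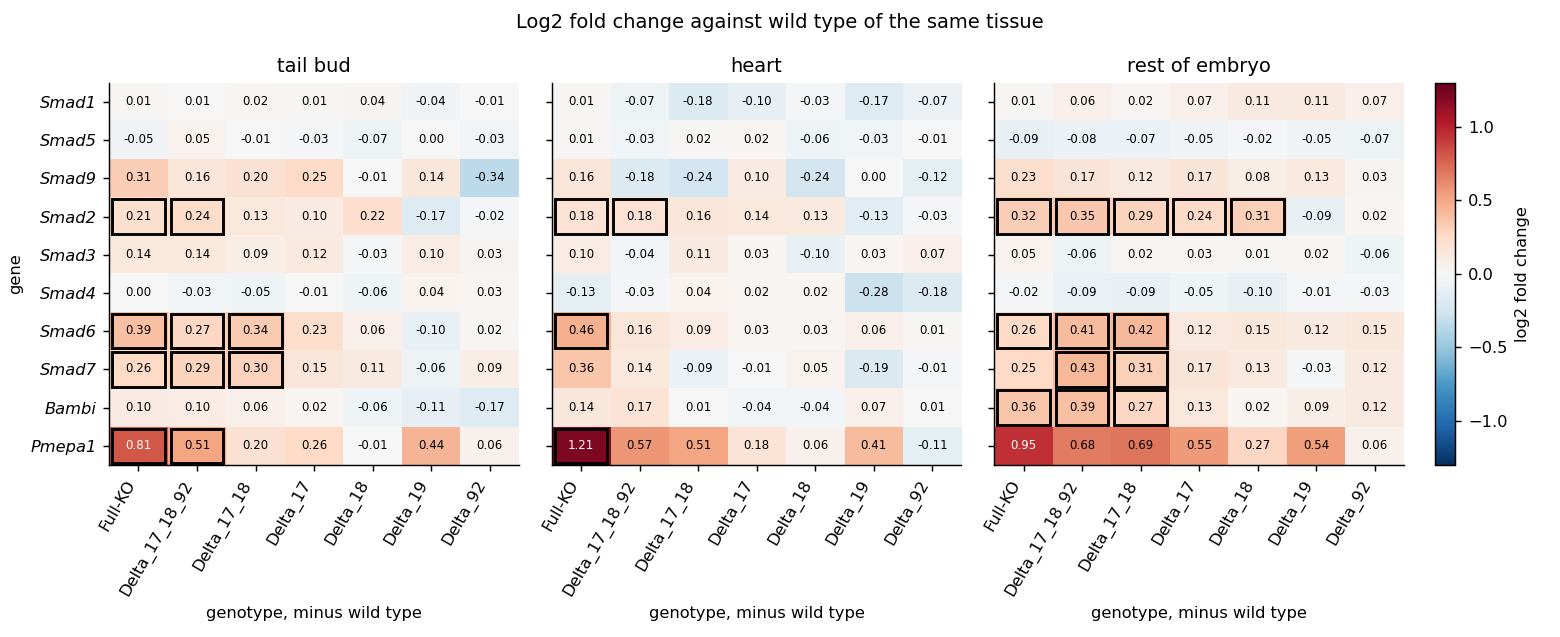
log2 change of each gene in the 7 mutants, each minus wild type, in the 3 tissues (n = 3 libraries per group, 2 for Delta_17_18_92 in the rest), with the value printed in each cell and boxes around the 27 comparisons with an edgeR adjusted p under 0.05. The boxes fall in Smad2, Smad6, Smad7, Bambi and Pmepa1, the highest value being 1.21 for Pmepa1 in Full-KO heart.

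Smad2, which transduces activin, Nodal and TGF-β signals, was higher in every mutant of the rest of the embryo that lacks the miR-17 or miR-18 seed. In this tissue Smad2 had 89.8, 94.0 and 95.5 CPM in Full-KO, 96.6 and 94.4 CPM in Delta_17_18_92, 92.7, 88.2 and 93.1 CPM in Delta_17_18. It had 91.1, 83.9 and 90.4 CPM in Delta_17 and 93.0, 92.8 and 92.7 CPM in Delta_18, against 74.5, 73.6 and 75.5 CPM in wild type. Every one of these libraries was above every wild-type library. The log2 changes were 0.32 ± 0.04 (SE) in Full-KO (24.5% higher; adjusted p = 1.16e-06), 0.35 ± 0.04 in Delta_17_18_92 (27.3%; 2.28e-06) and 0.29 ± 0.04 in Delta_17_18 (1.08e-05). They were 0.24 ± 0.04 in Delta_17 (18.5%; 0.000171) and 0.31 ± 0.04 in Delta_18 (24.3%; 2.66e-05). All 5 calls were kept when any 1 library was left out. Delta_19 had 68.3, 71.8 and 69.2 CPM and lay entirely below wild type, without passing the test (log2 -0.09 ± 0.04; adjusted p = 0.268), and Delta_92 had 75.5, 76.0 and 76.4 CPM (log2 0.02).

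In the tail bud Smad2 had 92.8, 93.9 and 93.9 CPM in Full-KO, 94.3, 96.4 and 95.9 CPM in Delta_17_18_92 and 91.1, 96.0 and 95.0 CPM in Delta_18, against 82.1, 77.9 and 81.2 CPM in wild type. Full-KO (log2 0.21 ± 0.05; adjusted p = 0.00563) and Delta_17_18_92 (0.24 ± 0.05; adjusted p = 0.0021) passed the edgeR test, and both calls were lost when only the 2 groups compared were fitted (0.122 and 0.111). Delta_18, although all its libraries were above wild type, missed it (0.22 ± 0.05; adjusted p = 0.0518), and so did Delta_19, at 71.5, 73.4 and 71.1 CPM and entirely below wild type (log2 -0.17 ± 0.05; adjusted p = 0.0785). DESeq2 called both of these. In the heart Smad2 had 105, 106 and 114 CPM in Full-KO and 110.3, 111 and 109 CPM in Delta_17_18_92, against 96.1, 95.7 and 95.8 CPM in wild type, with log2 changes of 0.18 ± 0.05 (13.6%; adjusted p = 0.02) and 0.18 ± 0.05 (13.5%; adjusted p = 0.0306). The heart calls depended on single libraries. That of Delta_17_18_92 was lost without any 1 of its 6 libraries (adjusted p 0.0628 to 0.13), and that of Full-KO without Full-KO 3 (0.135) or wild type 1, 2 or 3 (0.079, 0.063 and 0.0526). With no filter on low counts both were lost too (0.069 in Delta_17_18_92 and 0.0845 in Full-KO), and with only the 2 groups compared that of Delta_17_18_92 (0.0611). Smad2 in Delta_19 hearts, at 85.2, 85.3 and 90.7 CPM, was again entirely below wild type and did not pass the test (log2 -0.13 ± 0.05; adjusted p = 0.216).

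**Figure D3:**
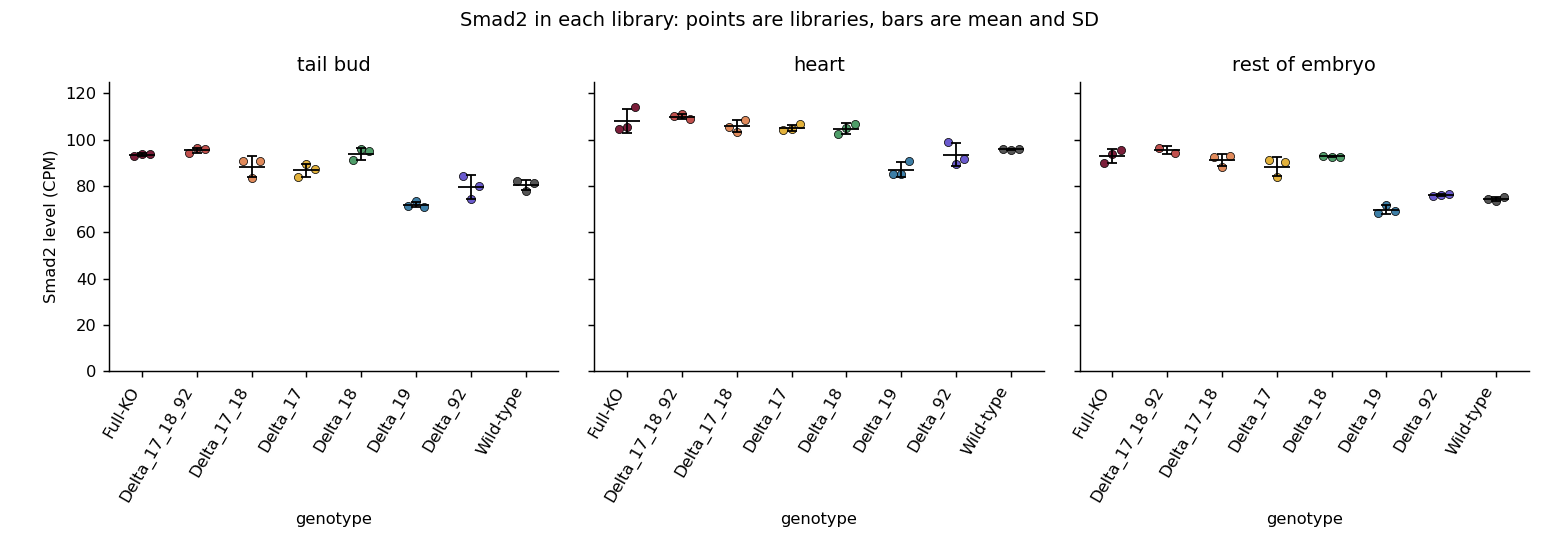
Smad2 level in CPM in every library, for the 7 mutants and, at the right, wild type, in each tissue, with the mean and SD of each group (n = 3, or 2 for Delta_17_18_92 in the rest). Delta_19 lies below wild type in all 3 panels, and Full-KO, Delta_17_18_92, Delta_17_18, Delta_17 and Delta_18 lie above it.

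The other transducers passed the edgeR test in no mutant (of 105 comparisons 18 had an unadjusted p under 0.05, and DESeq2 called 1, Smad9 in Full-KO tail buds). Over 21 comparisons each, log2 changes ran between -0.18 and 0.11 for Smad1 (smallest adjusted p = 0.208), -0.10 and 0.14 for Smad3 (0.0846), -0.28 and 0.04 for Smad4 (0.149), -0.09 and 0.05 for Smad5 (0.209) and -0.34 and 0.31 for Smad9 (0.0648). Smad5 in the heart, for example, had a lowest, median and highest level of 133, 143 and 158 CPM over the mutant libraries, and 146, 142 and 149 CPM in wild type, a range inside that of the mutants. The Smad9 extremes were both in the tail bud, at 15.3, 14.0 and 15.2 CPM in Full-KO (log2 0.31 ± 0.11; adjusted p = 0.0648) and 10.2, 9.84 and 8.00 CPM in Delta_92 (log2 -0.34 ± 0.11; adjusted p = 0.256), against 10.5, 13.8 and 11.2 CPM in wild type. Full-KO libraries were all above wild type and Delta_92 libraries all below it.

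Smad6, the inhibitor that acts most on BMP signals, was higher in Full-KO in all 3 tissues. In the tail bud it had 39.2, 40.2 and 39.4 CPM in Full-KO, 38.6, 33.7 and 36.7 CPM in Delta_17_18_92 and 38.2, 37.4 and 38.7 CPM in Delta_17_18, against 28.3, 32.0 and 29.3 CPM in wild type, with no overlap. The log2 changes were 0.39 ± 0.08 (adjusted p = 0.00257), 0.27 ± 0.08 (0.0457) and 0.34 ± 0.08 (0.0123). The Delta_17_18_92 call was lost without Delta_17_18_92 1 (0.199) or 3 (0.0918) or wild type 1 (0.109) or 3 (0.102) and with replicate number as a block (0.0515), and the Delta_17_18 call without Delta_17_18 3 (0.0532). With only the 2 groups compared they were lost as well (0.228 and 0.122). Red-cell genes were lower in these Full-KO and Delta_17_18_92 tail buds, at a summed 766 to 3389 CPM in Full-KO and 1432 to 2919 CPM in Delta_17_18_92, against 3578 to 5363 CPM in wild-type tail buds, and endothelium markers were 337 to 422 CPM in Full-KO tail buds, against 347 to 402 CPM in wild type. In the rest, red-cell genes summed to 1984 and 2053 CPM in Delta_17_18_92, against 2418 to 3624 CPM in wild type. The part of the red-cell differences in the calls of Smad2, Smad6, Smad7, Bambi and Pmepa1 in these groups was not tested.

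In the heart Smad6 had 145, 176 and 168 CPM in Full-KO, against 120.4, 116 and 123 CPM in wild type, a rise of 37.4% with no overlap (log2 0.46 ± 0.09; edgeR adjusted p = 0.00592). Delta_17_18_92 hearts, at 142, 119 and 143 CPM, overlapped wild type (log2 0.16; adjusted p = 0.488). Endothelium and endocardium markers overlapped between these groups, summing to 1152 to 1205 CPM in Full-KO hearts, against 1137 to 1164 CPM in wild-type hearts. In the rest of the embryo Smad6 had 24.4, 20.6 and 23.1 CPM in Full-KO, 25.3 and 25.4 CPM in Delta_17_18_92 and 26.9, 25.2 and 23.6 CPM in Delta_17_18, against 18.7, 18.9 and 19.0 CPM in wild type, and again the libraries did not overlap. These gave log2 changes of 0.26 ± 0.07 (adjusted p = 0.0275), 0.41 ± 0.08 (0.00132) and 0.42 ± 0.07 (0.000512). The Full-KO call was lost without Full-KO 1 (0.159) or 3 (0.0924) or wild type 1, 2 or 3 (0.0846, 0.0797 and 0.0724). Markers of heart tissue were also higher in both Delta_17_18_92 libraries of the rest, where heart muscle genes summed to 359 and 525 CPM, against 212 to 282 CPM in wild type. Their endothelium and endocardium genes summed to 415 and 447 CPM, against 369 to 382 CPM in wild type, again with no overlap. In Delta_17_18 the sums were 254 to 345 CPM for heart muscle, which overlapped wild type, and 362 to 368 CPM for endothelium, just below it. Head and trunk genes summed to 275 to 310 CPM in the Full-KO rest, entirely above the 258 to 273 CPM of wild type. In Delta_17_18_92 they were below it, at 246.8 and 247.7 CPM. Visceral endoderm and yolk sac genes summed to 38.9 to 44.4 CPM in Delta_17_18, below the 51.0 to 404 CPM of wild type. The part of these markers in the calls of Smad2, Smad6, Smad7 and Bambi in the rest was not tested.

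The miR-17 and miR-92 words of Smad6 stand close together in its short 3′ UTR, on the minus strand of chromosome 9 at chr9:63953275-63953302 and chr9:63953309-63953336 (GRCm38). Both are shown, with the matched letters in capitals, because the 4 mutants that lack the miR-17 seed had the highest Smad6 levels in tail bud.
Smad6 miR-17 match: acaagaaagacGCACTTTggcttgtaat
Smad6 miR-92 match: atttatatatgGTGCAATgtgtgtatat
Delta_17 tail buds had 36.1, 36.8 and 32.8 CPM of Smad6, entirely above wild type but not past the threshold (log2 0.23 ± 0.08; edgeR adjusted p = 0.181), and Delta_92 tail buds had 30.4, 28.5 and 32.0 CPM, which overlapped wild type.

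Smad7, the inhibitor that acts on both branches by blocking the receptors, was higher in tail bud and rest of the embryo. In the tail bud it had 42.9, 49.1 and 47.2 CPM in Full-KO, 51.5, 46.9 and 43.8 CPM in Delta_17_18_92 and 49.7, 46.5 and 46.3 CPM in Delta_17_18, against 39.6, 39.0 and 36.7 CPM in wild type. All 9 mutant libraries were above wild type, and the log2 changes were 0.26 ± 0.07 (adjusted p = 0.025), 0.29 ± 0.07 (0.0183) and 0.30 ± 0.07 (0.016). Each of these calls rested on single libraries. That of Full-KO was lost without Full-KO 2 (0.114) or 3 (0.0874) or wild type 3 (0.0916). That of Delta_17_18_92 was lost without Delta_17_18_92 1 (0.137) or 2 (0.0538) or wild type 3 (0.0614), and that of Delta_17_18 without Delta_17_18 1 (0.0564) or 2 (0.0513) or wild type 3 (0.0634). With only the 2 groups compared all 3 were lost (0.145 in Full-KO, 0.181 in Delta_17_18_92). In the rest of the embryo Smad7 had 28.2 and 27.9 CPM in Delta_17_18_92 and 29.0, 24.5 and 23.6 CPM in Delta_17_18, against 20.2, 19.4 and 22.4 CPM in wild type, with log2 changes of 0.43 ± 0.09 (adjusted p = 0.00243) and 0.31 ± 0.08 (0.0252). The Delta_17_18 call was lost without Delta_17_18 1 (0.178) or wild type 1 (0.109) or 2 (0.119). Both Delta_17_18_92 libraries here are those with the heart muscle sums of 359 and 525 CPM and the endothelium sums of 415 and 447 CPM, all above wild type, and the part of these markers in the Smad7 difference was not tested. Full-KO hearts, at 68.2, 96.4 and 85.3 CPM, overlapped the 67.5, 59.8 and 68.5 CPM of wild type (log2 0.36 ± 0.11; adjusted p = 0.0634, though DESeq2 called it).

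Bambi, the decoy receptor, passed the test in no mutant tail bud or heart, but did in the rest. In tail bud and heart 2 of 14 comparisons had an unadjusted p under 0.05, and DESeq2 called 0. In the rest it had 34.3, 34.9 and 41.2 CPM in Full-KO, 35.6 and 40.1 CPM in Delta_17_18_92 and 33.4, 34.3 and 35.9 CPM in Delta_17_18, against 28.6, 27.1 and 30.2 CPM in wild type. All 8 mutant libraries were above wild type. The log2 changes were 0.36 ± 0.07 (adjusted p = 0.000791), 0.39 ± 0.08 (0.00105) and 0.27 ± 0.07 (0.0207). The Delta_17_18_92 call was lost without Delta_17_18_92 2 (0.086), and the Delta_17_18 call without Delta_17_18 2 (0.0662) or 3 (0.101) or wild type 1 (0.071) or 2 (0.107). The Delta_17_18_92 libraries carried the higher heart muscle (359 and 525 CPM) and endothelium (415 and 447 CPM) sums given for Smad6, and their part in the Bambi difference was not tested. Bambi in Full-KO tail buds, at 77.2, 86.3 and 84.4 CPM, overlapped the 70.8, 66.9 and 92.4 CPM of wild type, where 1 library was higher than all the mutants. In hearts it had 156, 165 and 159 CPM in Full-KO, against 147, 143 and 147 CPM in wild type, entirely above but not past the threshold (log2 0.14 ± 0.05; adjusted p = 0.123).

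Pmepa1, which keeps Smad2 and Smad3 from the receptor, had the highest fold changes of the 10 genes in Full-KO hearts and tail buds. In hearts it had 14.7, 25.0 and 18.4 CPM in Full-KO, against 8.67, 8.08 and 8.59 CPM in wild type, 2.31-fold higher with no overlap (log2 1.21 ± 0.17; edgeR adjusted p = 0.000127). In tail buds it had 17.4, 21.1 and 17.3 CPM in Full-KO and 18.0, 14.0 and 13.1 CPM in Delta_17_18_92, against 11.1, 10.4 and 9.97 CPM in wild type. Both mutants lay entirely above wild type, Full-KO by 1.76-fold (log2 0.81 ± 0.12; adjusted p = 5.16e-05) and Delta_17_18_92 by a log2 change of 0.51 ± 0.12 (adjusted p = 0.0104), which was lost without Delta_17_18_92 1 (0.117) and with only the 2 groups compared (0.158). The Full-KO calls were kept when any 1 library was left out.

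In hearts of the other mutants Pmepa1 differed less from wild type. It had 14.9, 12.1 and 11.0 CPM in Delta_17_18_92 (log2 0.57 ± 0.17; adjusted p = 0.0966; called by DESeq2), 12.0, 12.0 and 11.7 CPM in Delta_17_18 (0.51 ± 0.18; 0.181) and 11.7, 9.55 and 12.2 CPM in Delta_19 (0.41 ± 0.17; 0.362). These 3 mutants lay entirely above wild type without passing the edgeR test. Hearts of Delta_17 (11.7, 7.43 and 9.29 CPM), Delta_18 (9.66, 8.20 and 8.43 CPM) and Delta_92 (5.99, 9.52 and 7.44 CPM) overlapped wild type. Delta_19 tail buds, at 12.8, 14.8 and 15.3 CPM, were also entirely above wild type (log2 0.44 ± 0.12; adjusted p = 0.0698). In the rest of the embryo, where the gene was rarest, it had 3.21, 4.36 and 5.06 CPM in Full-KO, against 1.66, 2.29 and 2.52 CPM in wild type, with no overlap and a wide error (log2 0.95 ± 0.38; adjusted p = 0.174).

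The 3 matches in the 3′ UTR of Pmepa1 are shown with the matched letters in capitals, because Pmepa1 differed most where the miR-19 seed was missing along with the others. They lie on the minus strand of chromosome 2 (GRCm38) at chr2:173227449-173227477, chr2:173227188-173227215 and chr2:173226047-173226074, and the first is followed by an A, which makes it an 8-base match.
Pmepa1 miR-19 match 1: ttaaagacataTTTGCACAaaacctttgt
Pmepa1 miR-19 match 2: aatgctgcgatTTTGCACtattttttaa
Pmepa1 miR-18 match: acctggacacaGCACCTTtttattactt
The miR-19 word was in 24.2% and the miR-18 word in 16.7% of 3′ UTRs of about the same length.

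**Figure D4:**
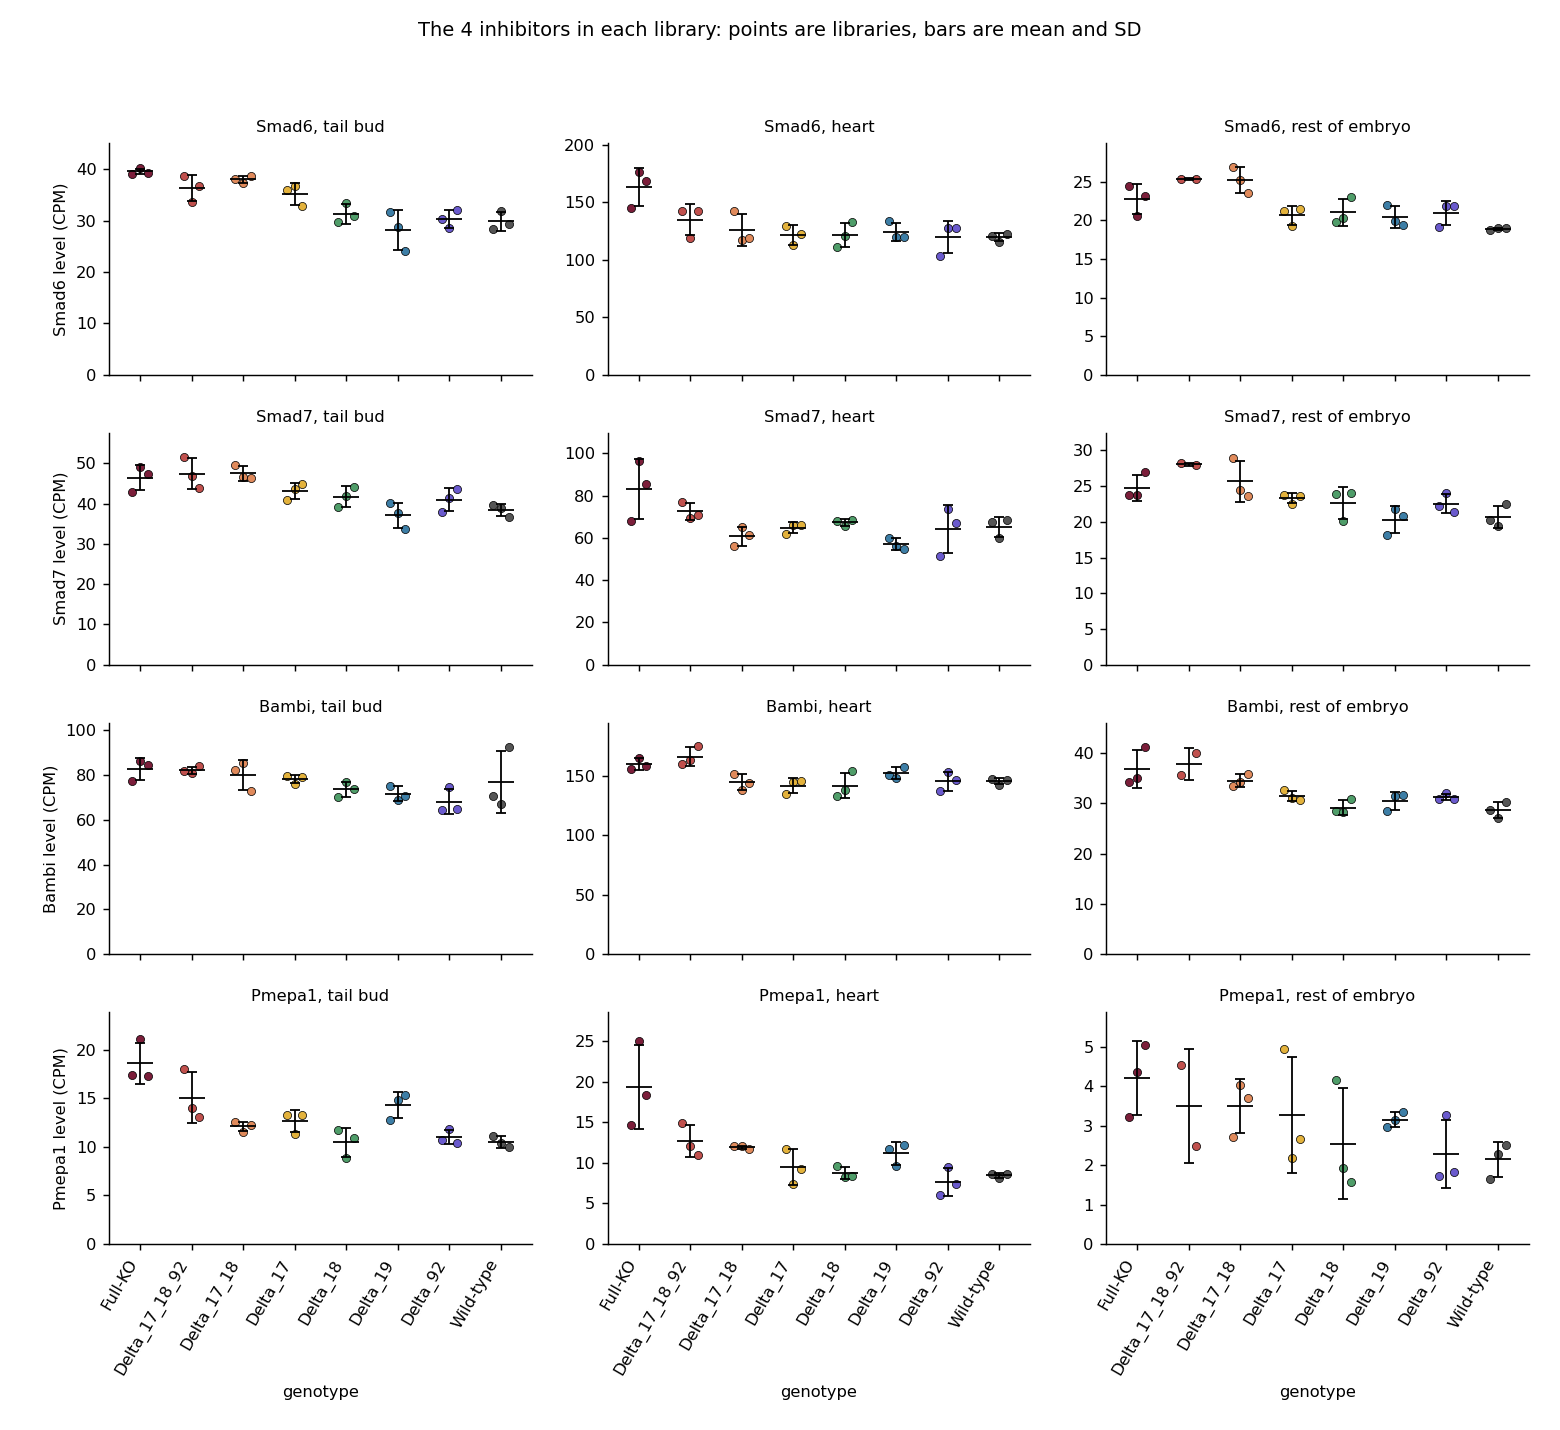
Levels of the inhibitors Smad6, Smad7, Bambi and Pmepa1 in CPM in every library, for the 7 mutants and, at the right, wild type, by tissue, with the mean and SD of each group (n = 3, or 2 for Delta_17_18_92 in the rest). Pmepa1 reaches 25.0 CPM in a Full-KO heart, against at most 8.67 CPM in wild-type hearts.

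Because several genotypes lack the same seed, all 24 or 23 libraries of a tissue were also fitted with 1 term for each seed family, scored by whether the family was deleted. A positive term means a higher level where the family is missing. Full-KO thus carries all 4 terms. By this measure Pmepa1 went with the miR-19 and miR-17 families, Smad2 with miR-17 and miR-18, and Smad6, Smad7, Smad9, Smad3 and Bambi with miR-17 in 1 or more tissues. Smad6 in heart and Smad9 in tail bud also went with miR-19. Of 120 terms 16 passed the test, all of them positive. They were 8 of 40 in tail bud (20%, beside 3.69% of all terms), 4 of 40 in heart (10%, beside 2.41%) and 4 of 40 for the rest (10%, beside 5%). By family they were 10 of 30 terms for miR-17, 2 for miR-18, 4 for miR-19 and 0 for miR-92 by edgeR (6 for miR-92 at an unadjusted p under 0.05, and 0 by DESeq2). Over all genes 5.44%, 3.61% and 7.49% of miR-17 terms, 0.323%, 0.0896% and 0.748% of miR-18 terms were called in tail bud, heart and rest. The shares were 5.33%, 4.37% and 6.59% of miR-19 terms and 3.66%, 1.58% and 5.18% of miR-92 terms.

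The miR-19 terms of Pmepa1 were the highest of the members, at 0.60 ± 0.09 in heart (log2, SE; edgeR adjusted p = 0.000375) and 0.43 ± 0.07 in tail bud (0.000144), and both were kept when any 1 library was left out. In the rest of the embryo this term was 0.38 ± 0.20 (adjusted p = 0.307). Its miR-17 terms were 0.38 ± 0.10 in heart (0.0281) and 0.28 ± 0.07 in tail bud (0.0124), though its 3′ UTR holds no miR-17 word. The heart term was lost without Delta_17 1 (0.159), Delta_18 2 (0.0885), Delta_18 3 (0.0761) or Delta_92 3 (0.052) or with no filter on low counts (0.0664), and the tail bud term without Delta_17 1 (0.0568), Delta_17 3 (0.0565) or Delta_18 2 (0.0555).

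For Smad2 the miR-18 term was 0.21 ± 0.03 in the rest (adjusted p = 0.000149) and 0.18 ± 0.03 in the tail bud (0.00822), and the miR-17 term was 0.14 ± 0.03 in the rest (0.00286) and 0.12 ± 0.03 in heart (0.0203). Its miR-17 term in tail bud (0.06 ± 0.03; 0.374) and its miR-18 term in heart (0.11 ± 0.03; 0.204) did not pass. The terms in the rest of the embryo were kept without any 1 library. The tail bud miR-18 term was lost without Delta_18 2 (0.0795) or 3 (0.089), and the heart miR-17 term without Delta_17 1 (0.0796), 2 (0.0948) or 3 (0.0749). The miR-19 terms of Smad2 were -0.10, -0.07 and -0.09 in tail bud, heart and rest, with adjusted p of 0.0983, 0.196 and 0.07, so none passed the test.

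Among the other members, the miR-17 term of Smad6 in tail bud was 0.26 ± 0.05 (adjusted p = 0.000666), that of Smad9 in tail bud 0.30 ± 0.07 (0.00316) and that of Bambi in the rest 0.17 ± 0.04 (0.00778). All 3 were kept without any 1 library. The miR-17 term of Smad6 did not pass in heart (0.09 ± 0.05; 0.443) or in the rest (0.12 ± 0.05; 0.168). In the rest its miR-18 term was 0.14 ± 0.05 (0.182), also not past the threshold, and its 3′ UTR holds no miR-18 word. The Smad9 3′ UTR holds no miR-17 word but 2 miR-19 words, and its miR-19 term in tail bud was 0.21 ± 0.06 (0.0476). That term was lost without any of 19 of the 24 libraries (0.0515 to 0.207), all but Delta_17_18_92 1, Delta_18 1, Delta_19 1 and wild type 2 and 3, and with no filter on low counts (0.0685). The miR-17 terms of Smad7 were 0.15 ± 0.04 in tail bud (0.028), lost without Delta_17 2 (0.0738), Delta_17 3 (0.103), Delta_18 1 (0.0815), Delta_18 2 (0.0585) or Delta_92 1 (0.0508), and 0.15 ± 0.05 in the rest (0.043). The second of these was lost without any of 13 of the 23 libraries (0.0525 to 0.157; Delta_17_18_92 1 and 2, Delta_17_18 1, Delta_17 1, 2 and 3, Delta_18 2, Delta_19 1, Delta_92 1 and 3, Full-KO 3 and wild type 1 and 2). Smad3 had a miR-17 term of 0.11 ± 0.03 in tail bud (0.0206), lost without Delta_17 1 (0.117) or Delta_18 3 (0.103). Smad6 had a miR-19 term of 0.19 ± 0.05 in heart (0.0377), lost without Delta_19 1 (0.115), Full-KO 2 (0.103) or Full-KO 3 (0.1) or with no filter on low counts (0.103). The 3′ UTR of Smad3 holds no miR-17 word, and that of Smad6 no miR-19 word. Of the 45 terms whose word is in the 3′ UTR of the gene, 11 passed (24.4%; median 0.0843), and of the 75 without the word 5 passed (6.7%; median 0.022). Over all genes, whatever their words, 3.69%, 2.41% and 5% of family terms were called in tail bud, heart and rest. That share was not split by word, and the groups with and without the word hold the families in different proportions. The difference between 24.4% and 6.7% was not tested.

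The 2 miR-19 words of Smad9 lie on the plus strand of chromosome 3 (GRCm38) at chr3:54799064-54799092 and chr3:54799963-54799991, and both are followed by an A. They are shown, with the matched letters in capitals, because the Smad9 term beside them was the least stable of the 16.
Smad9 miR-19 match 1: acggtaaaccaTTTGCACAgacatcaggt
Smad9 miR-19 match 2: gcagccaggccTTTGCACActgcaagttg
The miR-19 word was in 25.7% of 3′ UTRs of about the length of that of Smad9.

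**Figure D5:**
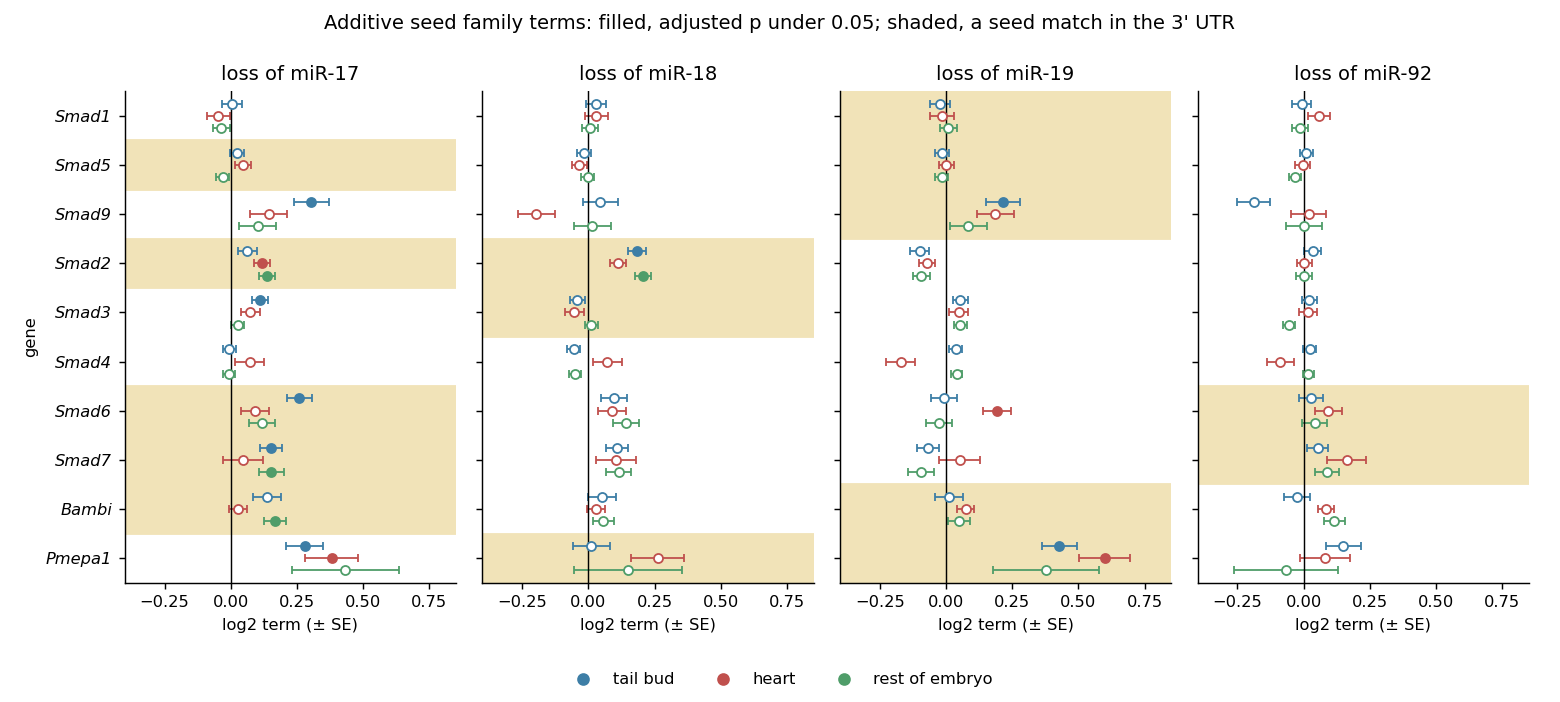
log2 term of each seed family (miR-17, miR-18, miR-19, miR-92) for the 10 genes by tissue, positive where the level is higher when the family is missing, with SE bars; filled points have an edgeR adjusted p under 0.05 and shading marks genes with the family's word in the 3′ UTR. The highest terms are those of Pmepa1 for miR-19, 0.60 ± 0.09 in heart and 0.43 ± 0.07 in tail bud.

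Mutants that differ by 1 further deletion were compared directly. Of 120 such comparisons 1 passed the test by edgeR (23 had an unadjusted p under 0.05, and DESeq2 called 4). Of all gene comparisons 0.453% were called in tail buds, 1.25% in hearts and 1.46% in the rest. This was Pmepa1 in heart, with 14.7, 25.0 and 18.4 CPM in Full-KO, against 14.9, 12.1 and 11.0 CPM in Delta_17_18_92 (log2 0.64 ± 0.16; adjusted p = 0.0293, with 3.76% of all genes called in that comparison). The ranges overlapped by 1 library, and the call was lost without Delta_17_18_92 2 (0.0846) or 3 (0.149) or Full-KO 2 (0.178) or 3 (0.0514). Smad6 in the same comparison, at 145, 176 and 168 CPM in Full-KO, against 142, 119 and 143 CPM in Delta_17_18_92, did not overlap and missed the threshold (0.30 ± 0.09; adjusted p = 0.0647), though DESeq2 called it (0.0147).

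For Smad2, no step from 1 of the miR-17 and miR-18 families deleted to both deleted was past the threshold. Delta_17_18 minus Delta_18 was -0.02 in the rest of the embryo, -0.09 in tail bud (adjusted p = 0.7) and 0.03 ± 0.05 (SE) in heart. Delta_17_18 minus Delta_17 was 0.04, 0.03 and 0.02 in rest, tail bud and heart. A step short of the threshold does not show that nothing was added. A test of whether the 7 mutants depart from the sum of the 4 family terms called 0 of 30 member and tissue combinations by edgeR (8 with an unadjusted p under 0.05, and 1 by DESeq2), where 0.0176%, 0.0597% and 0.103% of all genes were called in tail bud, heart and rest. The smallest value was that of Smad2 in the rest (unadjusted p = 8.49e-05; adjusted p = 0.0676), which passed by DESeq2 (0.0142), with no filter on low counts (0.0147), without Delta_17 2 (0.03) and without Full-KO 1 (0.0399). The same test of Smad2 gave an unadjusted p of 0.00177 in tail bud and 0.0333 in heart (adjusted p = 0.848 and 0.395). For Smad2, Delta_17_18 minus the sum of its single losses was -0.27 in rest, -0.19 in tail bud and -0.11 in heart. For Full-KO this departure was -0.17, 0.07 and 0.08. The sum of the terms was thus near the limit of describing Smad2 in the rest. By the same test Smad1 (0.0124), Smad3 (0.00408) and Smad7 (0.0207) in heart also had an unadjusted p under 0.05. So did Smad1 (0.0405) and Smad6 (0.0127) in the rest, and the adjusted p of these was 0.224 to 0.525. Smad7 in heart passed with no filter on low counts (adjusted p = 5.3e-05), and its Full-KO departure was 0.53. The term values of Smad2 in all tissues, and of these other members in the tissues named, are to be read with these departures.

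Whether Full-KO changed a member by different amounts in different tissues was tested as an interaction, and 0 of 30 member and tissue pairs passed (1 with an unadjusted p under 0.05; 0 by DESeq2; smallest adjusted p = 0.717), with 0.0456% of all genes called for heart minus tail bud, 0.0228% for heart minus rest and 0% for tail bud minus rest. The nearest was Smad2, heart minus rest of the embryo, at -0.14 ± 0.06 (unadjusted p = 0.0334). Same-numbered samples of different tissues deviated together in 59 of 70 pairs over all genotypes (correlation over 0.1), though in 4 of 9 in Full-KO. With the number within each genotype as a block the interaction count was also 0. A different count of calls between tissues is thus not shown by these tests to be a difference between them.

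Over the 24 group means, with each tissue centred on its own mean log2 CPM and 10730 genes compared, the genes whose pattern was most like that of Smad2 were Sae1 (Pearson r = 0.947), Eri1 (0.946) and Ap2b1 (0.943). Those most like Smad6 were Mfsd4a (0.901), Numbl (0.888) and Sox4 (0.886). These are descriptions over groups that share libraries and tissues, and the closest genes of a large table are close by selection.

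The wider pathway, 76 listed genes in 6 lists, was read in Full-KO, where 10.4%, 3.91% and 6.66% of all genes were called in tail bud, heart and rest. Receptors were called higher in 2 of 12 tests in tail bud (16.7%), 3 of 13 in heart and 3 of 13 in the rest (23.1% each), with 0 lower. The list medians were 0.121, 0.00354 and 0.0168, against -0.00815, 0.00247 and -0.0032 over all genes. Bmpr2, the type II BMP receptor, had 69.8, 78.9 and 75.4 CPM in Full-KO tail buds, against 50.6, 55.6 and 46.0 CPM in wild type, with no overlap (log2 0.54 ± 0.09; adjusted p = 0.000299). Acvr1b, the type I receptor for activin and Nodal, was higher in Full-KO tail buds (0.36 ± 0.06; adjusted p = 0.000519), hearts (0.30; 0.00195) and the rest (0.27; 0.00255). Tgfbr2, the type II TGF-β receptor, was higher in the rest (0.45; 8.75e-05), at 26.3, 26.5 and 25.1 CPM in Full-KO, against 18.9, 18.8 and 19.3 CPM in wild type. Bmpr2 was also higher in the rest (0.34; adjusted p = 0.000688), a call kept without any 1 library. The heart calls of Tgfbr2 (0.38; adjusted p = 0.0189) and Bmpr2 (0.30; 0.0232) were each lost when 1 library was left out. For Tgfbr2 these were Full-KO 2 or 3 or wild type 1 or 2 (up to 0.114), and for Bmpr2 Full-KO 2 or wild type 1 (up to 0.134).

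Ligands were called in 1 of 9, 2 of 12 and 0 of 11 tests in tail bud, heart and rest, all higher. Gdf11, which patterns the trunk and tail, had 169, 164 and 189 CPM in Full-KO tail buds, against 142, 122 and 127 CPM in wild type (log2 0.41 ± 0.06; adjusted p = 0.00017). Nodal had 1.84, 3.93 and 2.42 CPM in Full-KO hearts, against 0.217, 0.387 and 0.294 CPM in wild type, a low level in both and without overlap (log2 3.18 ± 0.54; adjusted p = 0.00102). Bmp6 in heart (0.63; 0.0125) was lost without Full-KO 2 or 3 or wild type 3 (up to 0.106). Extracellular antagonists, which bind ligands, were called in 3 of 10, 2 of 8 and 1 of 8 tests, all higher. Only Twsg1 in heart (0.31; adjusted p = 0.00341) among those was kept without any 1 library. The tail bud call of Fstl1 (0.15; 0.0136) was lost without Full-KO 1 (0.0549). Those of Bmper (0.36; 0.0375) and Nog (0.50; 0.0465) in tail bud and of Twsg1 in the rest (0.13; 0.0251) were each lost without any of 5 of the 6 libraries (up to 0.144, 0.141 and 0.109). Lefty2, near the floor at 0.147, 0.691 and 0.656 CPM in Full-KO hearts, against 0, 0.166 and 0 CPM in wild type, had an adjusted p of 0.0408, which was up to 0.177 without Full-KO 2 or 3 or wild type 1 or 3.

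SMAD partners and regulators were called higher in 6 of 18 tests in tail bud, 2 of 18 in heart and 4 of 18 in the rest, and lower in 1, 0 and 1. The tail bud count was 2 with only the 2 groups compared, where the calls of Rnf111 and Foxh1 were lost. Tgif1, a co-repressor of Smad2, was higher in Full-KO tail buds (0.32; adjusted p = 8.99e-05) and the rest (0.43; 3.39e-07), where it had 72.4, 74.0 and 71.0 CPM in Full-KO, against 52.3, 51.0 and 57.8 CPM in wild type. Rnf111, a ubiquitin ligase that degrades SMAD inhibitors and co-repressors, was higher in tail bud (0.38; 0.00015), heart (0.33; 0.00134) and rest (0.35; 2.05e-06), and Zfyve9, the anchor that presents Smad2 to the receptor, in tail bud (0.32; 3.10e-05). The co-repressor Skil was higher in heart (0.30; 0.00677; 0.0622 without Full-KO 2) and in the rest (0.26; 0.00387). The remaining upward calls, named after their values were seen, were Skil, Ski and Zeb2 in tail bud and Zfyve9 in the rest. Foxh1, a Smad2 partner named here after its values were seen, was the gene called lower. It was at 0.788, 1.37 and 1.34 CPM in Full-KO tail buds, against 3.16, 3.42 and 2.19 CPM in wild type (log2 -1.34 ± 0.32; adjusted p = 0.00904). It was at 1.74, 1.48 and 1.49 CPM in the Full-KO rest of the embryo, against 3.31, 4.02 and 2.64 CPM in wild type (-1.08 ± 0.27; 0.0158, up to 0.0907 without Full-KO 2 or 3 or wild type 2).

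BMP response genes were called higher in 2 of 9, 1 of 10 and 1 of 10 tests in tail bud, heart and rest, none lower. With 1 library left out, up to 1 was called lower in tail bud. With no filter on low counts the upward count in the rest was 5. Tbx20, a heart transcription factor, was higher in heart (0.30; adjusted p = 0.00129) and Msx1 in the rest (0.34; 0.00195), both kept without any 1 library. Msx2 (0.29; 0.0399) and Tbx20 (0.69; 0.0452) were called in tail bud, and both calls were lost without any of 5 of the 6 libraries (up to 0.154 and 0.239). TGF-β and activin response genes were called higher in 1 of 9, 1 of 9 and 3 of 10 tests, none lower. In the rest of the embryo Ccn2, a matricellular protein, had 25.4, 23.9 and 24.1 CPM in Full-KO, against 15.1, 16.1 and 14.6 CPM in wild type (log2 0.68 ± 0.09; adjusted p = 2.63e-06), and Thbs1, a matrix protein that activates TGF-β, was 0.56 higher on the log2 scale (0.000645). Fn1, fibronectin, was called in tail bud (0.31; 0.0114; 0.067 without wild type 3) and in the rest (0.27; 0.019; up to 0.0989 without Full-KO 1 or 3 or wild type 2 or 3).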

How the data were processed

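The authors deposited 1 table of raw counts per gene for all 71 libraries, made from 50-base single reads of TruSeq libraries, per the labels' protocols. Per the submitters' processing notes, the tools included featureCounts from Subread 1.4.2, STAR 2.3.0 and SAMtools 0.1.14, and the builds were mm9 and NCBIM37. Strand and multimapping settings are not given in the sources used here. Gene IDs without a symbol (of 37620 IDs, 32897 had one) held 0.839% of counts and were kept.

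Each tissue was fitted on its own over all genotypes with edgeR 4.0.16 in R 4.3.3 (filterByExpr by genotype, TMM, glmQLFit with robust estimation, glmQLFTest), with Benjamini-Hochberg adjustment over all genes and a threshold of 0.05. Log2 changes come from these fits. CPM levels were computed from the deposited counts with TMM factors over all 71 libraries jointly, so their ratios can differ slightly from the fitted changes. Family terms, steps between mutants, wild-type tissue contrasts and the tissue interaction used the same test. DESeq2 1.42.0 was an alternative, as were size factors, no filter on low counts, only the groups compared, a replicate block and leaving out each library. The biological coefficient of variation was 8.74% (tail bud), 8.87% (heart) and 6.47% (rest). All 70 replicate pairs differed by more than counting error, the closest with a chi-square of 2.66 per degree of freedom. Where nothing says that samples came from separate embryos, p-values measure only the spread between these samples.

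Sequences are from RefSeq (GRCm38.p6) and GENCODE M21 (GRCm38), not the authors' build; a word of bases 2 to 8 was searched in the longest 3′ UTR. The 10 genes and all lists were chosen with earlier results of these data known. Of each pathway list, up to 3 genes with the smallest p among those called in Full-KO are named per tissue, and the members are all named. A result on 1 listed gene is not reported here. Gdf1 was not matched. Scripts were tested on simulated data. In wild type, same-numbered samples of different tissues correlated in their deviations in 9 of 9 pairs (0.153 to 0.63), so numbers pair the wild-type tissues; within a tissue they did not pair the genotypes.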

Additional observations from a re-analysis of the deposited data

How the results depend on the processing

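No result changed direction under any setting tried. Of the 27 calls against wild type, 15 were kept without any 1 library and 13 under every setting; 2 were lost with no filter on low counts, 9 with only the groups compared, 1 with the replicate block, and 0 with size factors or DESeq2. The tail bud count of 10 was 2 with only the groups compared, and 8 to 15 when 1 library was left out. The heart count of 4 was 7 with no filter and 7 by DESeq2, and 2 to 5 when 1 library was left out (2 without wild type 1, 2 or 3). The count of 13 in the rest was 10 to 14. Of the 16 family terms 7 were kept without any 1 library. The heart terms, 4, were 2 with no filter and 2 to 5 with 1 library left out (2 without Delta_17 1). The tail bud terms, 8, were 4 to 9 (5 without Delta_17 1, Delta_17 3 or Delta_18 3, 4 without Delta_18 2), and those of the rest, 4, were 3 to 5. The departure count of 0 was 2 with no filter, 1 by DESeq2, and 0 to 1 with 1 library left out. The single step call was 10 calls with no filter, 4 by DESeq2 and 2 with the replicate block, and 0 to 4 with 1 library left out: 0 without Delta_17_18_92 2, Full-KO 2 or Full-KO 3 in heart, 4 without Delta_17_18 1 in heart, and 2 without Delta_18 3 or Full-KO 3 in the rest or Delta_92 1, wild type 1 or wild type 3 in heart. The 25 wild-type tissue calls were 23 to 25 (2 were lost with no filter and 1 by DESeq2), and the interaction count of 0 was 0. In the pathway lists, with 1 library left out, the upward counts were 3 to 6 of the SMAD partners in tail bud (6), 0 to 2 of the antagonists there (3), 0 to 1 of the BMP response genes there (2) and 1 to 3 of the receptors in heart (3). The downward count of the BMP response genes in tail bud (0) was 0 to 1. With no filter, the partners in heart were 4 (2), the BMP response genes 3 in heart (1) and 5 in the rest (1), the TGF-β and activin response genes 3 in heart (1) and 5 in the rest (3), the antagonists 1 in tail bud (3) and 2 in the rest (1). With only the groups compared, the partners were 2 in tail bud and 4 in heart, the antagonists 0 in tail bud and 1 in heart (2), and the BMP response genes 4 in the rest, 2 in heart and 0 in tail bud. DESeq2 gave 3 ligands in tail bud (1). The causes were not tested.

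Replicate numbers did not pair genotypes within a tissue: the median correlation of same-numbered samples was -0.0191, -0.0444 and -0.0147 in tail bud, heart and rest, and over 0.1 in 26 of 84, 18 of 84 and 25 of 77 pairs. The replicate block ended the call of Smad6 in Delta_17_18_92 tail buds (adjusted p 0.0515) and the miR-19 term of Smad9 in tail bud (0.0559). Across wild-type tissues, where the numbers do pair the samples, it ended 0 of the 25 calls, and 27 passed. Groups of 3 libraries limit what can be seen: the smallest log2 change called against wild type was 0.18, and Pmepa1 in the rest of the embryo had the widest error.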
